A study of Mus musculus with 17 samples.

Results

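The elastic fibre and microfibril genes were taken by symbol from a matrix of gene counts in cultured mouse lung fibroblasts. All 9 were found among 55421 genes: Eln, Fbn1, Mfap2, Mfap4, Mfap5, Fbln1, Fbln2, Fbln5 and Efemp2. Of these, 8 passed the filter on low counts, which kept 10481 genes with more than 10 CPM, counts scaled to library size, in at least 2 libraries. Mfap2 did not pass and is given by its levels only.

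Elastic fibres let the lung stretch and recoil. Their core is elastin, which is secreted as soluble tropoelastin, laid onto a scaffold of fibrillin microfibrils with the help of fibulins and microfibril-associated proteins, and crosslinked by lysyl oxidases. The fibres are made mostly by fibroblasts and smooth muscle cells, and their genes are usually most active during lung growth and again in scarring.

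All mice carried Ephb4f/f and Col1a2-CreERT2, a tamoxifen-dependent Cre under the promoter of a collagen gene. At 4 weeks of age, mice received 4-hydroxytamoxifen (1 mg per day for 5 days; Ephb4 CKO) or corn oil (Ephb4 control), so the deletion and the drug that induced it cannot be told apart. At 6 weeks of age, bleomycin (1.2 U/kg), which injures the lung and leads to scarring, or PBS was given into the airways, and lung fibroblasts were isolated 14 days later and passaged 1 time. Libraries from 4 Ephb4 control mice after PBS, 4 Ephb4 control mice after bleomycin, 5 Ephb4 CKO mice after PBS and 4 Ephb4 CKO mice after bleomycin were sequenced. Mice are numbered within a group as names only.

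The libraries held 66540022 to 120554468 counts. Ephb4, the receptor kinase whose gene was floxed, had 65.1, 13.2, 35.3 and 40.5 CPM in Ephb4 control mice 1 to 4 after bleomycin and 14.0, 9.53, 10.1 and 4.93 CPM in Ephb4 CKO mice 1 to 4 after bleomycin (log2 fold change -2.00, SE 0.79, adjusted p = 0.22, edgeR), so the groups overlapped at their edge. After PBS it had 24.2, 4.00, 33.5 and 2.32 CPM in control mice and 7.70, 23.6, 8.97, 4.01 and 4.05 CPM in CKO mice (-0.73, SE 0.72, adjusted p = 1, edgeR). In 3 libraries (mouse 2 of the control bleomycin group and mice 1 and 2 of the CKO bleomycin group), sex-specific transcripts went against the recorded sex. The labelled cell type also varied in its markers. Fibroblast markers (10 genes, 7 of them past the filter) summed to 4340 to 10500 CPM in the 4 control bleomycin libraries and to 6730 CPM in control PBS mouse 3, but to 12.2, 23.3 and 104 CPM in the other control PBS libraries, 26.1 to 1760 CPM in CKO PBS mice and 13.6 to 1220 CPM in CKO bleomycin mice. Col1a1, which encodes a chain of type I collagen, had 652 to 2239 CPM in control bleomycin mice and 1.54 to 157 CPM in CKO bleomycin mice. Macrophage markers (15 genes) summed to 1190 to 17800 CPM in control bleomycin mice and 18400 to 41100 CPM in CKO bleomycin mice, and smooth muscle markers (6 genes) to 2920 to 4020 CPM and 24.7 to 1940 CPM. After PBS, macrophage markers summed to 9350 to 42800 CPM in control mice and 16400 to 33100 CPM in CKO mice. Smooth muscle markers summed to 7.97 to 676 CPM in control PBS mice and 37.5 to 491 CPM in CKO PBS mice. In bulk libraries, fewer fibroblasts and less RNA per fibroblast cannot be told apart.

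The 9 genes lie on 8 chromosomes in GRCm38. Eln is at chr5:134702593-134747323 and Fbn1 at chr2:125300594-125507993, both on the minus strand. The other microfibril genes are Mfap2 (chr4:141010418-141015984), Mfap4 (chr11:61485431-61488900) and Mfap5 (chr6:122505845-122529290), all on the plus strand. Fbln2 (chr6:91212455-91272540), Fbln1 (chr15:85205949-85286535) and Efemp2 (chr19:5473954-5482517) are on the plus strand and Fbln5 (chr12:101746565-101819055) on the minus strand. Another annotated gene overlaps Eln, Fbn1, Mfap4 and Efemp2 on the opposite strand. Libraries were stranded and strand was set during alignment, while no such option is listed for the counting step in the sources used here.

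The upstream sequence of fibulin genes is shown as a description, and its relation to their levels was not tested. RefSeq windows (GRCm38.p6) were matched for 6 of the 9 members, in 11 windows, not including Eln, Mfap4 and Mfap5. In 3 of the 11, the 250 bases before the start held no annotated exon, and these are printed 5′ to 3′ with GGGCGG, on either strand, in capitals.
Fbln1, chr15:85205699-85205948, plus strand: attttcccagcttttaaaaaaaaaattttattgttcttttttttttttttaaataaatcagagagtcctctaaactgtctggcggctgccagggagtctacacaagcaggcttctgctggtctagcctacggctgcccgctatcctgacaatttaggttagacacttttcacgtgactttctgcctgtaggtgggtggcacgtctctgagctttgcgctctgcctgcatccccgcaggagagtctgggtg
Fbln5, chr12:101819120-101819369, minus strand: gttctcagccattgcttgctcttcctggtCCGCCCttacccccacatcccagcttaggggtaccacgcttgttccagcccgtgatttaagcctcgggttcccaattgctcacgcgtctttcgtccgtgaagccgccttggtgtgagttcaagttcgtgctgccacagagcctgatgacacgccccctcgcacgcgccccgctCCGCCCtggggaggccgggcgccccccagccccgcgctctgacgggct
Efemp2, chr19:5473696-5473945, plus strand: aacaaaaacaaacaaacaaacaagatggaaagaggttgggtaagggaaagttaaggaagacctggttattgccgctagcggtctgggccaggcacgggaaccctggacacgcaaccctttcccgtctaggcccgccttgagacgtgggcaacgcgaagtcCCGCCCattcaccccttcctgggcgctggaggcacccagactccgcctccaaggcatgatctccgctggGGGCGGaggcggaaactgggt
The printed Fbln5 and Efemp2 windows each held GGGCGG 2 times and the printed Fbln1 window held it 0 times. Other windows of these genes, which overlapped annotated exons, held it 1 time (Fbln1), 0 times (Fbln5) and 5 times each (Efemp2). The Fbln2 window also overlapped annotated exons, held GGGCGG 1 time and is not printed. Over all 32851 windows of the same length, with or without annotated exons, 32.7% held it. TATAAA (12.4% of all windows), TGANTCA (6.75%) and GGAATG (12.6%), each searched on both strands, were in none of the 3 printed windows.

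In Ephb4 control mice after bleomycin, every member was detected in every library, and the members differed widely in level per kilobase of exon. Fbln2, a fibulin of basement membranes and microfibrils, was highest at 254 ± 50.8 CPM per kilobase (SD, n = 4), above Fbn1, the fibrillin that forms the microfibril backbone, at 72.7 ± 20.2. Their ranges did not overlap (204 to 298 and 46.7 to 94.4). Mfap5, a small glycoprotein bound to fibrillin, followed at 48.2 ± 25.6 and Efemp2, the fibulin (fibulin-4) that brings lysyl oxidase to tropoelastin, at 40.7 ± 8.60, and neither was separate from Fbn1 or from the other by range. Eln was number 5 of 9 at 6.68 ± 3.14 CPM per kilobase. Its range of 3.91 to 10.6 overlapped those of Fbln5 (6.54 ± 2.12), Mfap4 (5.79 ± 2.89), Fbln1 (4.37 ± 2.59) and Mfap2 (3.88 ± 2.49), so the order among these 5 was not resolved. In Ephb4 CKO mice after bleomycin, Fbln2 was again highest by mean at 33.0 ± 49.1 CPM per kilobase, but Eln was last of 9 at 0.0386 ± 0.0446, with no library above 0.0779. The range of Fbln2 (0.233 to 106) overlapped that of Efemp2 (3.75 to 28.5), and Eln overlapped Mfap4 (0 to 0.523). Neither the first nor the last place was thus resolved.

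**Figure D1:**
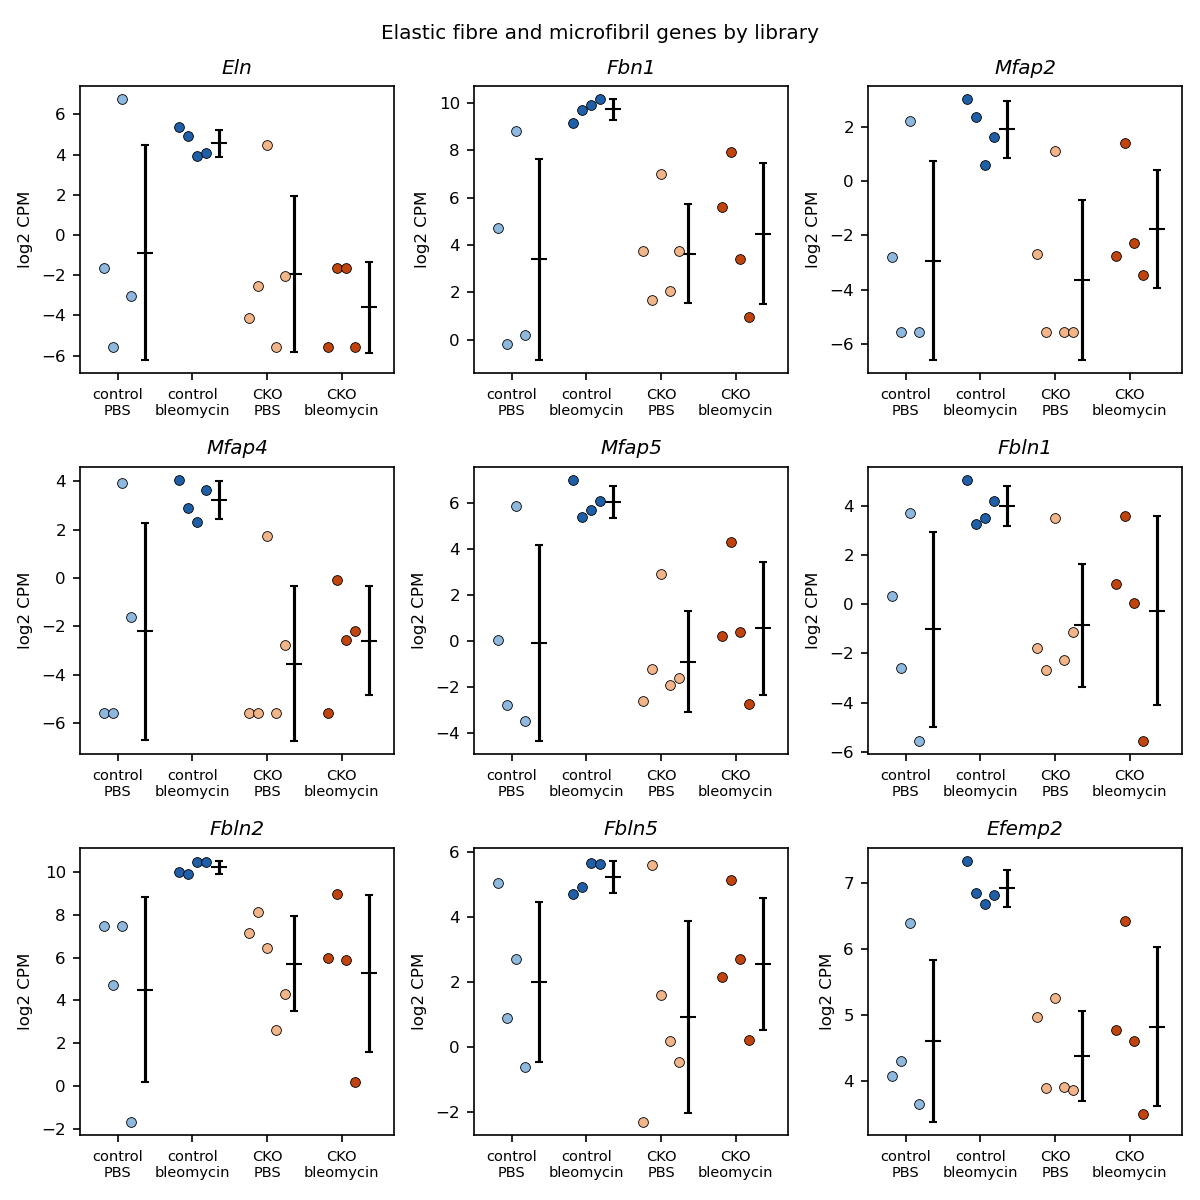
Level of each of the 9 genes in every library, as log2 CPM (vertical axis, 1 panel per gene), for the 4 groups (horizontal axis). Points are mice and the bars to their right are the mean and SD. The 4 control bleomycin libraries lie close together, with an SD of 0.28 to 1.04 in log2 CPM, while most values in the other groups are more widely spread, and mouse 3 of each PBS group stands high for Eln.

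In the plot of levels by library, the control bleomycin group had the highest mean log2 CPM for all 9 members. Eln, the elastin gene, had 41.0, 30.1, 15.1 and 16.9 CPM in Ephb4 control mice 1 to 4 after bleomycin. In Ephb4 CKO mice 1 to 4 after bleomycin it had 0, 0.300, 0.295 and 0 CPM, the largest being 32 counts in its library. All 4 CKO libraries were thus far below all 4 controls. After PBS, Eln had 0.295, 0, 109 and 0.10 CPM in Ephb4 control mice 1 to 4, and 0.0366, 0.153, 22.7, 0 and 0.223 CPM in Ephb4 CKO mice 1 to 5. A single mouse, number 3, held nearly all Eln counts of each PBS group, and control PBS mouse 3 had the highest Eln level of all 17 libraries.

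Fbn1 had 560, 829, 967 and 1133 CPM in control bleomycin mice 1 to 4 and 48.5, 243, 10.5 and 1.94 CPM in CKO bleomycin mice 1 to 4. After PBS it had 26.0, 0.866, 451 and 1.14 CPM in control mice and 13.4, 3.19, 127, 4.11 and 13.4 CPM in CKO mice. Mouse 3 was again the high library of each PBS group, but unlike Eln, Fbn1 stayed below every control bleomycin library in all other groups.

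Mfap4, a fibrinogen-related protein that binds elastin and fibrillin, had 16.6, 7.46, 5.00 and 12.5 CPM in control bleomycin mice and 0, 0.938, 0.148 and 0.200 CPM in CKO bleomycin mice. Mfap5 had 128, 42.3, 51.6 and 68.4 CPM in control bleomycin mice and 1.15, 19.8, 1.31 and 0.129 CPM in CKO bleomycin mice. For both genes, the CKO libraries were all lower than the controls, and in the PBS groups mouse 3 was highest (Mfap4 15.2 and 3.35 CPM, Mfap5 58.8 and 7.51 CPM in the control and CKO groups). Mfap2, another fibrillin-bound glycoprotein, was low throughout, with 1.48 to 8.06 CPM in control bleomycin mice and 0.0705 to 2.60 CPM in CKO bleomycin mice, ranges that overlapped. After PBS it reached 4.54 CPM in control and 2.14 CPM in CKO mice, both in mouse 3.

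Among the fibulins, Fbln2 had 1035, 977, 1427 and 1423 CPM in control bleomycin mice and 64.1, 505, 58.5 and 1.12 CPM in CKO bleomycin mice. Efemp2 had 160, 115, 102 and 112 CPM in control bleomycin mice and 27.4, 85.8, 24.4 and 11.3 CPM in CKO bleomycin mice. These 2 genes were separate between genotypes after bleomycin, with mouse 2 the highest CKO library for both. Fbln5, the fibulin that tethers elastin to cells, had 26.6, 30.6, 51.3 and 50.1 CPM in control bleomycin mice and 4.47, 35.5, 6.59 and 1.16 CPM in CKO bleomycin mice. Fbln1, which binds elastin and fibronectin, had 9.49 to 32.9 CPM in control bleomycin mice and 0 to 12 CPM in CKO bleomycin mice. For Fbln5 and Fbln1 the groups overlapped, through CKO bleomycin mouse 2. After PBS, Fbln2 had 181, 26.3, 179 and 0.290 CPM in control mice and 140, 278, 86.1, 6.19 and 19.8 CPM in CKO mice, without a single high mouse. Efemp2 was the steadiest member after PBS, at 12.6 to 83.9 CPM in control and 14.6 to 38.2 CPM in CKO mice. Fbln1 reached 13.0 and 11.4 CPM in mouse 3 of the control and CKO groups and at most 1.22 and 0.433 CPM in their other mice. In the PBS groups, Fbln5 was highest not in mouse 3 (6.58 and 3.02 CPM) but in control PBS mouse 1 (33.5 CPM) and CKO PBS mouse 2 (48.7 CPM), where Eln was at 0.295 and 0.153 CPM.

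The effect of Ephb4 deletion on these genes after bleomycin was examined by comparing Ephb4 CKO and Ephb4 control mice. None of the 8 tested members passed an adjusted p of 0.05 in edgeR's quasi-likelihood test over 10481 genes, where 0% of all genes passed. The fitted log2 fold change was negative for all 8, with a median of -3.24 against 0.009 over all tested genes. At an unadjusted p under 0.05, 2 of 8 were lower (Eln and Efemp2), against 9.18% of all genes. The groups did not overlap, with CKO lower, for 6 of 8 (Eln, Fbn1, Mfap4, Mfap5, Fbln2 and Efemp2), against 12.2% of all genes. The filter favours genes that are high in some group, so these shares describe the tested members only. DESeq2 called 0 members and 399 genes (3.81% of all genes), with 6 of 8 members against 26% of all genes at an unadjusted p under 0.05. Limma voom called 0 members and 0% of all genes, with 5 of 8 members against 23% at an unadjusted p under 0.05.

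Eln had the most negative fold change of the 8 (-7.43, SE 2.97, adjusted p = 0.22, edgeR), from a mean of 25.8 ± 12.2 CPM (SD, n = 4) to 0.149 ± 0.172 CPM. Because 2 CKO libraries had 0 counts, the fitted value depends on how the model treats zeros. Its adjusted p ranged from 0.0532 (DESeq2) to 0.986 (with a fibroblast marker score in the model) over the alternatives tried. Efemp2 had the smallest fold change, at -1.72 (SE 0.65, adjusted p = 0.218, edgeR), but also the smallest error. The microfibril genes lay between them. Fbn1 was at -3.52 (SE 1.82), Mfap4 at -5.01 (SE 2.57) and Mfap5 at -3.70 (SE 1.97), with adjusted p of 0.267 to 0.28 (edgeR). Fbln2 was at -2.95 (SE 1.56, adjusted p = 0.276, edgeR), whereas Fbln1 (-2.28, SE 1.93) and Fbln5 (-1.73, SE 1.51) had errors nearer to their own size and adjusted p of 0.482 and 0.493 (edgeR).

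Without the 3 libraries that went against the recorded sex, 3 control and 2 CKO bleomycin libraries remained. Eln was then at -7.40 (adjusted p = 0.389, edgeR), Efemp2 at -2.85, Fbn1 at -7.20 and the median of the members at -5.77, and 0 members were called. Leaving out only CKO bleomycin mouse 2, the CKO bleomycin library with the most fibroblast marker RNA, gave -8.06 for Eln, -5.43 for Fbn1 and a median of -5.15.

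**Figure D2:**
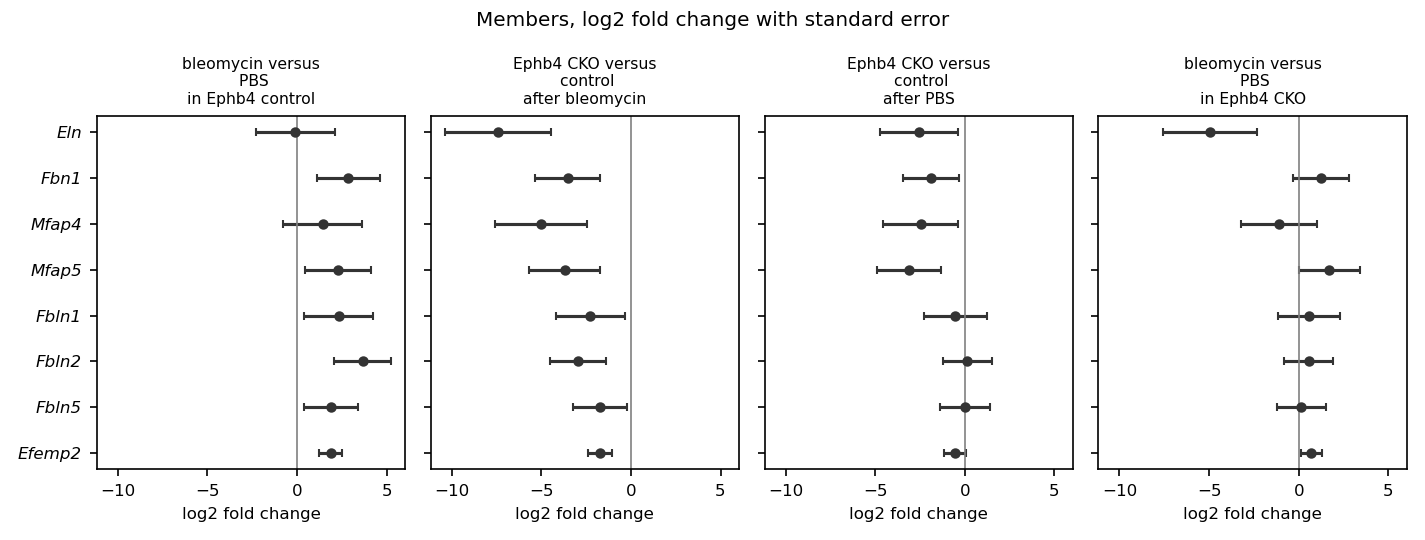
Log2 fold change of the 8 tested members (horizontal axis, edgeR) with its standard error (bars), in 4 comparisons (panels). After bleomycin all 8 points lie below 0 in Ephb4 CKO against control, from -7.43 for Eln to -1.72 for Efemp2, and in Ephb4 control mice 7 of 8 lie above 0 for bleomycin against PBS, with Eln at -0.09.

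The response to bleomycin in Ephb4 control mice was compared in the same model and shares the control bleomycin libraries with the comparison above. No member passed an adjusted p of 0.05, as for 0% of all genes in edgeR. DESeq2 called 0 members and 166 genes (1.58% of all genes), with 3 of 8 members against 17.9% of all genes at an unadjusted p under 0.05. Limma voom called 0 members and 0% of all genes, with 7 of 8 members against 16.9% at an unadjusted p under 0.05. In edgeR, 7 of 8 members were on the higher side after bleomycin, with a median of 2.09 against -0.06 over all genes. At an unadjusted p under 0.05, 2 of 8 were higher (Fbln2 and Efemp2), against 6.28% of all genes, and the groups did not overlap for 3 of 8 (Fbn1, Fbln2 and Efemp2), against 5.72%. Fbln2 averaged 1220 ± 243 CPM after bleomycin and 96.7 ± 96.9 CPM after PBS (log2 fold change 3.65, SE 1.61, adjusted p = 0.335). Efemp2 averaged 122 ± 26.0 and 33.2 ± 33.9 CPM (1.88, SE 0.66, adjusted p = 0.315). Fbn1 (2.87, SE 1.77), Mfap5 (2.28, SE 1.85), Fbln1 (2.31, SE 1.94), Fbln5 (1.90, SE 1.52) and Mfap4 (1.42, SE 2.20) had adjusted p of 0.446 to 0.769 (edgeR).

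Eln was the exception, at -0.09 (SE 2.21, adjusted p = 0.987, edgeR), and this value rested on 1 library. The mean of control PBS mice was 27.4 ± 54.4 CPM, and without mouse 3 it was 0.132 CPM. Leaving out that mouse moved the Eln fold change to 7.66 (adjusted p = 0.121, edgeR) and the median of the members to 5.96. Control PBS mouse 3 was also the only control PBS library with fibroblast markers in the range of the bleomycin libraries, at 6730 CPM, while its smooth muscle markers, at 676 CPM, were below the 2920 to 4020 CPM of those libraries.

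Between genotypes after PBS, none of the 8 members passed an adjusted p of 0.05 (0% of all genes) and 0 had an unadjusted p under 0.05 in edgeR, against 1.99% of all genes. DESeq2 called 0 members and 1 gene (0.00954%), with 1 member against 3.33% of all genes at an unadjusted p under 0.05, and limma voom called 0 members and 0% of all genes, with 0 members against 0.458%. Fold changes ran from -3.12 (Mfap5, SE 1.77) to 0.13 (Fbln2, SE 1.37), with a median of -1.22. Eln was at -2.56 (SE 2.16), and at 5.14 without control PBS mouse 3.

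In Ephb4 CKO mice, bleomycin against PBS gave 0 calls (0% of all genes) and 0 members with an unadjusted p under 0.05 in edgeR, against 0.964% of all genes. DESeq2 called 0 members and 1 gene (0.00954%), with 1 member against 1.77% of all genes at an unadjusted p under 0.05, and limma voom called 0 members and 0% of all genes, with 0 members against 0.267%. Eln was at -4.95 (SE 2.63) and Mfap4 at -1.11 (SE 2.13), while the other 6 tested members were between 0.15 (Fbln5, SE 1.39) and 1.69 (Mfap5, SE 1.70). Without CKO PBS mouse 3, Eln was at 0.54.

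Whether the response to bleomycin differed between the genotypes was tested as an interaction. None of the 8 members passed (0% of all genes, smallest member adjusted p = 0.916, edgeR), and 0 had an unadjusted p under 0.05, against 3.46% of all genes. DESeq2 and limma voom called 0% of all genes, with 0 and 2 members at an unadjusted p under 0.05, against 5.2% and 2.86% of all genes. The fitted interactions were all negative, from -4.87 (Eln, SE 3.31) to -0.58 (Mfap5, SE 2.46), with a median of -1.74. Leaving out CKO PBS mouse 3 turned this median to 0.46, and leaving out control PBS mouse 3 gave -4.99. In the latter fit, 5 of 8 members had an unadjusted p under 0.05 in edgeR, against 1244 of all 10481 genes. In either case 0 members were called.

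**Figure D3:**
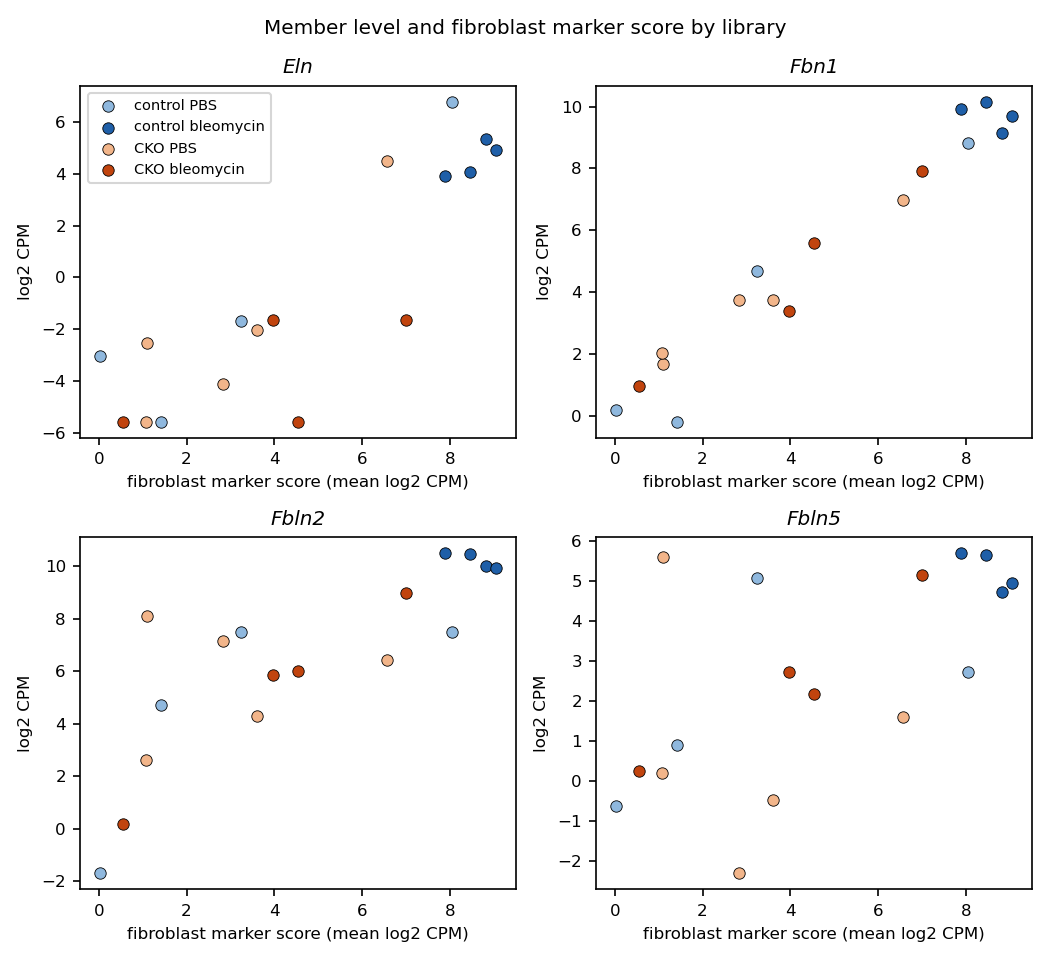
Log2 CPM of Eln, Fbn1, Fbln2 and Fbln5 (vertical axes) against the mean log2 CPM of 7 fibroblast markers (horizontal axes), 1 point per library, coloured by group. Eln is low in CKO bleomycin mouse 2 at a score of 6.99 and high in CKO PBS mouse 3 at 6.56, and Fbln5 is high in CKO PBS mouse 2 at a score of 1.09.

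Across the 17 libraries, Pearson's r of log2 CPM over the 36 pairs of members ran from 0.451 to 0.957, with a median of 0.818. The libraries share groups and differ in fibroblast marker content, so these values are descriptions. Fbn1 and Mfap5 were the closest pair (0.957). Eln was nearest to Mfap4 (0.908) and Mfap5 (0.890) and farther from Fbln2 (0.643) and Fbln5 (0.550). The lowest value, 0.451, was between Mfap4 and Fbln5. With the fibroblast score as a covariate in edgeR, the fold changes of CKO against control after bleomycin were -1.75 for Eln (adjusted p = 0.986), -0.55 for Fbn1, -1.02 for Mfap4, -0.67 for Mfap5, -1.64 for Fbln2, -1.39 for Fbln5 and -0.51 for Efemp2, and Fbln1 turned to 1.09. The score itself differed between these groups, at 8.56 ± 0.51 in control bleomycin mice (SD, n = 4) and 4.01 ± 2.66 in CKO bleomycin mice. A macrophage score as covariate gave -6.34 for Eln and a median of -2.34.

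The genes with a pattern most like each member, by Pearson's r of log2 CPM over the 17 libraries, are given as a description. Bgn, the proteoglycan biglycan, was among the 3 nearest to both Fbn1 (r = 0.985) and Fbln1 (0.974), and Loxl1, a lysyl oxidase that acts on elastin, was nearest to Fbln1 (0.977). Mfap5 was nearest to Mxra7 (0.988) and Efemp2 to Rcn1 (0.984) and Rcn3 (0.977), calcium-binding proteins of the secretory pathway. Eln was nearest to Ndufa4l2 (0.935) and Adamts10 (0.924), a microfibril-bound protease. Eln itself was among the 3 nearest to Mfap4 by Pearson's r (0.908) but not among the 50 nearest by Spearman's rho (0.779). Mfap2 was nearest to Slit3 (0.968). Fbln2 was nearest to Flnc (0.980), a filamin of muscle and stressed cells, and Fbln5 to Faxc (0.962) and Fat1 (0.956), a large cadherin.

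Members were also read relative to Fbn1 in the same library. Eln per 1000 Fbn1 counts was 73.1, 36.4, 15.6 and 14.9 in control bleomycin mice 1 to 4. In CKO bleomycin mouse 2, where Fbn1 reached 243 CPM, Fbln2 505 CPM and Fbln5 35.5 CPM, it was 1.23. In control PBS mouse 3 it was 242 and in CKO PBS mouse 3, with an Fbn1 level of 127 CPM, it was 179. Both of these PBS libraries exceeded every bleomycin library in this ratio, as did control PBS mouse 4 at 87.7, on 10 Eln counts. The ratio was 11.4 and 0 in control PBS mice 1 and 2. In CKO PBS mice 1, 2, 4 and 5 it was 2.73, 47.9, 0 and 16.6. The other CKO bleomycin libraries had 0, 28.1 and 0, over 48.5, 10.5 and 1.94 CPM of Fbn1. These rested on 0, 24 and 0 Eln counts over 5307, 855 and 165 Fbn1 counts. Mfap5 per 1000 Fbn1 counts was 81.3 in CKO bleomycin mouse 2, within the 51.0 to 229 of control bleomycin mice, and Mfap4 was 3.86, against 5.17 to 29.7. Fbln5 per 1000 Fbn1 counts was 146 in that library, against 36.9 to 53.1 in control bleomycin mice. It was 92.3, 627 and 600 in the other CKO bleomycin mice, where Fbn1 was lower. In control PBS mice 1 to 4 it was 1290, 2120, 14.6 and 553. In CKO PBS mice 1 to 5 it was 13.7, 15300, 23.9, 277 and 52.6. Each of the CKO bleomycin and PBS values given here rests on 1 mouse.

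The other genes of elastic fibre assembly, 41 listed by role and 36 past the filter, were read from the same fit of CKO against control after bleomycin. None passed an adjusted p of 0.05 in edgeR, 26 were on the lower side and 10 on the higher side, and the median was -0.95. At an unadjusted p under 0.05, 8 were lower, against 9.18% of all genes, and 2 were higher, against 11% of all genes. The groups did not overlap for 14 with CKO lower, against 12.2% of all genes, and for 2 with CKO higher, against 11%.

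Fold changes of the lysyl oxidases, which crosslink elastin, were negative for 5 of 5, from -4.14 for Loxl2 (SE 1.56, adjusted p = 0.218, edgeR) to -1.85 for Loxl4 (SE 1.22, adjusted p = 0.37, edgeR). Loxl2 had 341, 389, 258 and 361 CPM in control bleomycin mice and 20.2, 43.8, 11.8 and 0.869 CPM in CKO bleomycin mice, so every CKO library was lower. Latent TGF-beta binding proteins, which join growth factor stores to microfibrils, were negative for 4 of 4, from -3.72 for Ltbp4 (SE 1.83) to -0.15 for Ltbp3 (SE 0.59). Among fibrillin and fibulin relatives, Hmcn1, a hemicentin, was at -4.05 (SE 1.70) and Efemp1, fibulin-3, at -1.22 (SE 1.23). The emilins, which sit between elastin and microfibrils, were at -0.89 (Emilin1, SE 0.55) and -0.08 (Emilin2, SE 0.65). The proteoglycans Vcan, versican, and Bgn were at -3.10 (SE 1.58) and -2.22 (SE 1.61). Between genotypes after PBS, Hmcn1 was at -3.42 (SE 1.51) and Efemp1 at -0.08 (SE 1.15). Vcan was at -2.68 (SE 1.43) and Bgn at -1.14 (SE 1.46) there.

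Microfibril-associated ADAMTS and ADAMTS-like genes were divided, 2 of 5 negative, from -2.24 for Adamts6 (SE 0.86, adjusted p = 0.218, edgeR) to 0.42 for Adamtsl5 (SE 0.39). The integrins that bind elastic fibre proteins were negative for 6 of 6, from -1.83 for Itga8 (SE 1.73) to -0.45 for Itgb5 (SE 0.34). The genes of the elastin receptor complex, which senses elastin fragments, were positive for 3 of 3. They ran from 0.37 for Glb1 (SE 0.36) to 1.03 for Neu1, a sialidase of the lysosome (SE 0.39, adjusted p = 0.219, edgeR). After PBS these 3 were also positive between genotypes, from 0.29 for Ctsa (SE 0.45) to 0.76 for Glb1 (SE 0.35). Elastin-degrading proteinases were positive for 4 of 7, from -1.87 for Mmp2 (SE 0.77) to 2.89 for Mmp12, macrophage elastase (SE 1.03, adjusted p = 0.211, edgeR). Mmp12 had 357, 626, 667 and 344 CPM in control bleomycin mice and 2197, 9032, 1738 and 1825 CPM in CKO bleomycin mice, all above the controls. After bleomycin, macrophage markers were on the same side as Mmp12 for 15 of 15, though by as little as 0.012 and up to 3.92. Of these, 4 had an unadjusted p under 0.05 in edgeR, against 11% of all genes on the higher side. Fibroblast and smooth muscle markers were lower for 7 of 7 and 6 of 6, against 49.3% of all genes. The part of cell content in these values was not tested.

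**Figure D4:**
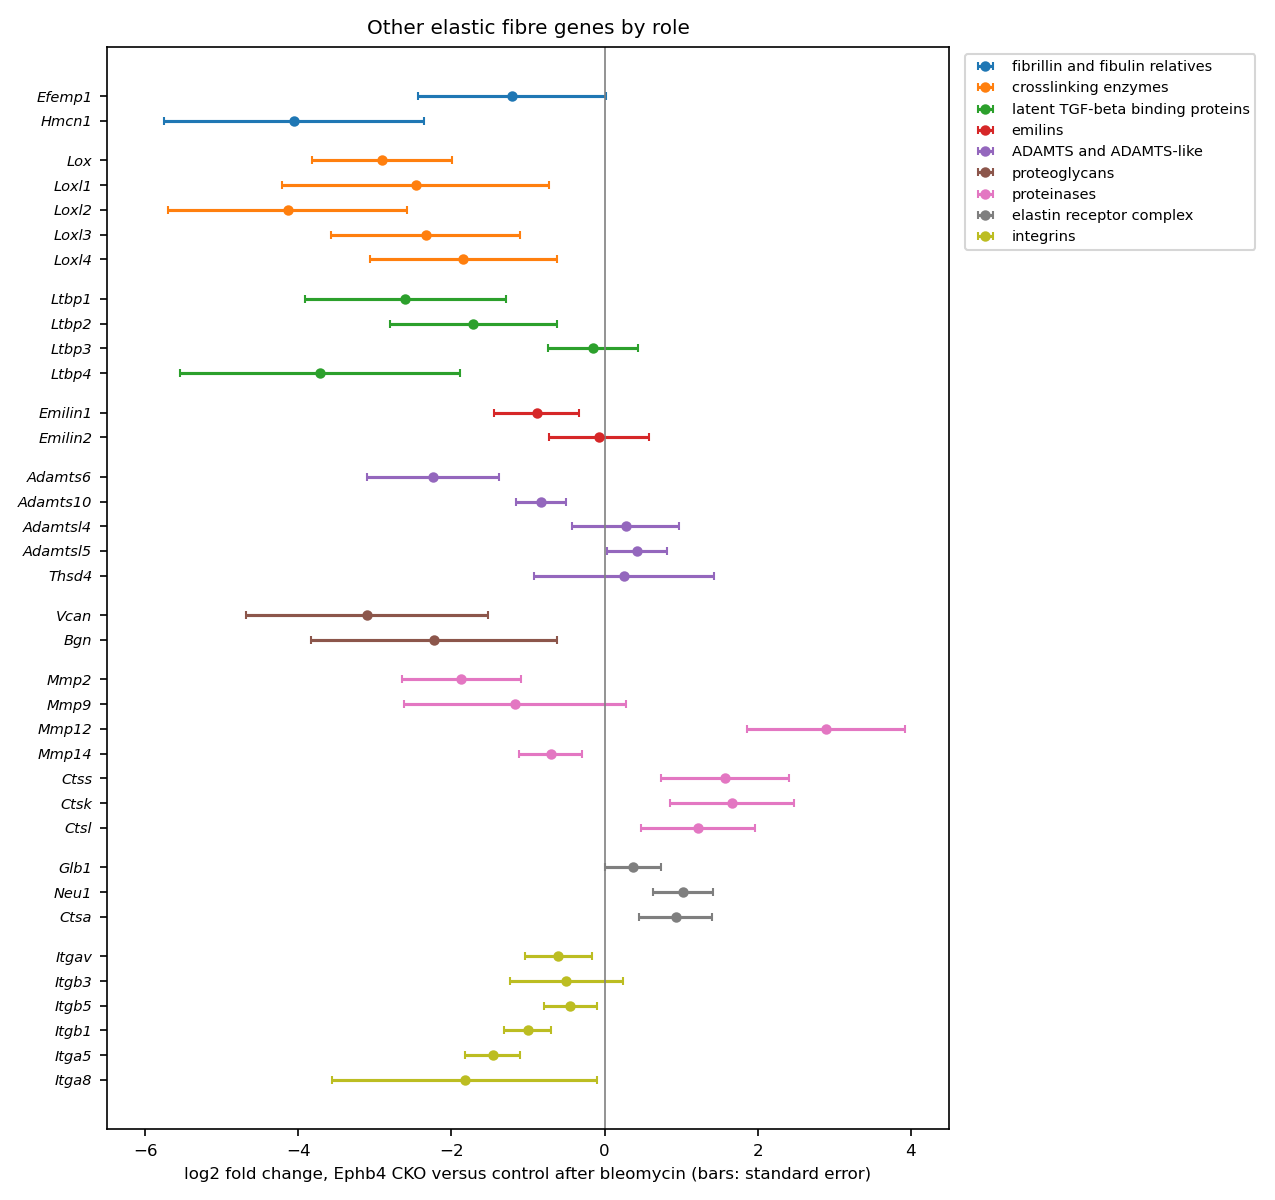
Log2 fold change of the 36 other elastic fibre genes past the filter, Ephb4 CKO against control after bleomycin (horizontal axis, edgeR, bars are standard errors), grouped and coloured by role. Crosslinking enzymes, latent TGF-beta binding proteins and integrins lie below 0, and the elastin receptor complex with Mmp12 and the cathepsins lies above it.

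In Ephb4 control mice, bleomycin against PBS placed 26 of the 36 other genes on the higher side, with a median of 0.65 and none past an adjusted p of 0.05 in edgeR. At an unadjusted p under 0.05, 5 were higher (Itga5, Itgb5, Mmp2, Emilin2 and Ltbp2), against 6.28% of all genes, and the groups did not overlap for 9, against 5.72%. On the lower side at that p there was 1 (Neu1, -0.95, SE 0.39), against 836 of all 10481 genes. Itga5, a subunit of the fibronectin receptor, averaged 186 ± 88.8 CPM after bleomycin and 71.0 ± 31.9 CPM after PBS (log2 fold change 1.39, SE 0.36, adjusted p = 0.268, edgeR).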

How the data were processed

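RNA from first-passage lung fibroblast cultures of 17 mice was made into stranded total RNA libraries and sequenced as read pairs. Per the labels and the study's methods, the authors trimmed reads with Cutadapt (version 1.18 in the submitters' processing notes), aligned them to GRCm38 with HISAT2 2.1.0, and assembled a gene count table from StringTie output. The deposited values are raw counts per gene, not normalized, and no pooling of mice is stated. The labels describe 2 sequencing sets but do not assign libraries to them, so no batch term was fitted. Title number series (4C11, 4C12) served as an alternative covariate, and all 4 control bleomycin libraries are in 4C12.

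Counts were fitted in edgeR 4.0.16 (R 4.3.3) with 1 mean per group, TMM normalization and the quasi-likelihood F test, for genes above 10 CPM in at least 2 libraries. P-values were adjusted by Benjamini-Hochberg over 10481 genes. SE is the fold change divided by the square root of F. CPM are TMM-scaled, log2 CPM use a prior count of 2, and exon lengths come from the GENCODE annotation. DESeq2 1.42.0, limma 3.58.1, other filters and covariates were alternatives, and steps were tested on simulated data. Counting noise is small at these depths for most genes, and p-values there measure mostly the spread between mice. Counting noise is not small where counts are few, as for Eln in CKO bleomycin mice (0 to 32 counts). No replicate pair differed by less than sampling noise.

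The members, the pathway list by role and the cell type markers were chosen with earlier results of these data known. All 9 members are named. Of the other genes, those with the lowest and highest fold change within each role after bleomycin are named, with genes among the 3 nearest in pattern to a member. The genes other than members named for bleomycin against PBS in control mice were chosen after their values were seen.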

Additional observations from a re-analysis of the deposited data

Results flagged for a closer look

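Values of each member in each group (36 sets of 4 or 5 mice, on the log2 scale) were screened for 1 mouse lying apart by Dixon's ratio of gap to range. In 2 of the 36, a mouse exceeded the 95% critical value, a rate chance gives in about 1 in 20 groups. Both were mouse 3 of the CKO PBS group. Mfap5 had 7.51 CPM there against 0.146 to 0.407 CPM in the other mice (ratio 0.753), and Fbln1 had 11.4 CPM against 0.136 to 0.433 CPM (ratio 0.752).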

How the results depend on the processing

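No member was called at an adjusted p of 0.05 in any of the 5 comparisons under any alternative. These were DESeq2, limma voom, RLE normalization, 2 other filters, only the groups compared, only series 4C12, libraries left out, and covariates. The covariates were recorded sex, number series, and fibroblast or macrophage score. Recorded sex went against sex-specific transcripts in 3 libraries, so that covariate was not a full adjustment for sex. In CKO against control after bleomycin, leaving out 1 library at a time kept Eln between -8.06 and -7.01 and the median of the members between -5.15 and -2.83. Only Fbln1 changed sign there, to 1.09 with the fibroblast score.

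In Ephb4 control mice, Eln for bleomycin against PBS, -0.09 in edgeR, was 5.90 in limma voom, 4.36 with number series as a covariate, 6.44 in series 4C12 only (1 control PBS library, assumed to vary like the other groups), 0.11 with the macrophage score and -0.51 to 7.66 when leaving out 1 library. With the fibroblast score, Mfap4 was at -0.56 and Fbln1 at -1.41. Between genotypes after PBS, leaving out 1 library gave -8.08 to 5.14 for Eln and -3.82 (without CKO PBS mouse 3) to 1.96 (without control PBS mouse 3) for the median. For bleomycin against PBS in CKO mice, Eln was 0.73 in series 4C12 and -5.58 to 0.54 when leaving out 1 library. The median there was -0.31 with the fibroblast score, -1.95 without the libraries against the recorded sex, and -1.38 (without CKO bleomycin mouse 2) to 2.06 (without CKO PBS mouse 3) when leaving out 1 library. The median of the interaction, -1.74, was -5.09 in limma voom, -0.53 with the fibroblast score, -4.28 without the libraries against the recorded sex, and -4.99 (without control PBS mouse 3) to 0.463 (without CKO PBS mouse 3) when leaving out 1 library. The cause of these shifts was not tested. Leaving out mouse 3 of both PBS groups, chosen after seeing the data, gave 7.66 and 0.54 for Eln in control and CKO mice. No paired analysis was possible because replicate numbers were assigned only as names. Spread between mice, more than depth, limits these comparisons, except where members had few or no counts.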
